A study of Mus musculus with 9 samples.

Results

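The 9 genes described here form a growth receptor axis: the ligands Hgf, Nrg1, Angpt1 and Angpt2, the receptors Met, Erbb2, Erbb3 and Egfr, and the transcription factor Stat3. They were chosen by symbol, and for each gene the transcript entry with the highest mean read count over the 9 libraries was used. All 9 had a count in at least 1 library, out of 17767 genes with a count, and 7 of them passed the filter on low counts, out of 11985 genes tested. Hgf and Angpt2 did not pass it. The values that chose the entries were mean counts, from 0.333 for Hgf and 3.0 for Angpt2 to 4565 for Met. For Met the next entry had a mean of 4565 counts as well, and for Nrg1 it had 753 against 1158 in the entry used.

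RNA was sequenced from mouse hepatoma cells, labelled Hepa 1 WT by source and HC1C by cell line, with 3 libraries in each of 3 groups. One group was given FICZ at 10 nM, one was given tryptamine at 50 uM, and the third was the control, and all were held for 6 h. The control is labelled untreated, while the protocol speaks of a vehicle. FICZ forms from tryptophan under light and is a ligand of the aryl hydrocarbon receptor (AhR), a transcription factor that ligands switch on. Tryptamine is a monoamine that the series title calls a proligand of the AhR. All groups share 1 cell line, and the labels do not say whether libraries of a group came from separate cultures, so p-values measure only the spread between these libraries, which may be technical. The doses differ, so a difference between FICZ and tryptamine compares the treatments as given and not the compounds at a matched dose.

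MET is the receptor tyrosine kinase for hepatocyte growth factor (HGF), which drives hepatocyte growth and motility. ErbB receptors work in pairs: ERBB3 binds neuregulin-1, the product of Nrg1, but has little kinase activity of its own and signals together with ERBB2, which has no known ligand, while EGFR binds epidermal growth factor and its relatives. Angiopoietin-1 activates the receptor TIE2 (gene Tek) on endothelial cells and angiopoietin-2 mostly opposes it. STAT3 is switched on by cytokine receptors through JAK kinases and also by receptor tyrosine kinases.

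Promoter sequence from RefSeq (GRCm38.p6) was found for 5 of the 9 genes, Hgf, Met, Egfr, Erbb2 and Stat3, and not for Nrg1, Erbb3, Angpt1 and Angpt2. Met and Stat3 are shown because both were higher with FICZ in every library. Each is the 250 bases before the annotated start, 5′ to 3′ on the gene's strand. They lie at chr6:17463707-17463956 on the plus strand for Met and at chr11:100939541-100939790 on the minus strand for Stat3. Capitals mark GCGTG, the core of the element that the AhR and its partner ARNT bind, searched on both strands, where it reads CACGC.
Met: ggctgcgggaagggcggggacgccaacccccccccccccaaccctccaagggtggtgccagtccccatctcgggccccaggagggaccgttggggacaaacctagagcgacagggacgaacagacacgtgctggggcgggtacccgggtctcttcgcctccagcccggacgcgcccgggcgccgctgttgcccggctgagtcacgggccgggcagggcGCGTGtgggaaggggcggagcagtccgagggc
Stat3: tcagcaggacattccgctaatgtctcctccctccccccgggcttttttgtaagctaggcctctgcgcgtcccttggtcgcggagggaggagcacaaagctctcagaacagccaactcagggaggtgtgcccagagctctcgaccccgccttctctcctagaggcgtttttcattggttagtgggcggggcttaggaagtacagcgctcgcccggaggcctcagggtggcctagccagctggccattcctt
The Met window holds the motif once, with its first base 32 bases before the start, and the Stat3 window does not hold these letters. Of the 6 windows of the 5 genes, 2 hold it, the Met window and 1 of the 2 Hgf windows. Among all 32851 promoter windows of the same length, 28.2% hold it, so a match is common and describes only the letters.

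Library totals over genes ran from 11238769 to 16245640 counts. The lowest was control replicate 3, which stood apart from the other 8 libraries. Its log2 CPM (counts scaled to library size) correlated with theirs across genes at 0.945 to 0.952. For each of the other 8, the highest correlation with another library was 0.991 to 0.994. Control replicate 3 was the lowest control in all 7 tested genes of the axis. The square root of the common dispersion, a measure of the spread between libraries of a group, was 0.156 with this library and 0.0747 without it. Results are therefore given from all 9 libraries and again without control replicate 3, which leaves 2 controls, and a gene is said to have risen or fallen only where its Benjamini-Hochberg adjusted p from edgeR's quasi-likelihood test over all genes was under 0.05. The AhR response was present: Cyp1a1 and Cyp1b1 (cytochromes P450), Tiparp (a mono-ADP-ribosyltransferase) and Nqo1 (a quinone reductase) all rose with FICZ, Cyp1a1 by 4.08 on the log2 scale. With tryptamine Cyp1a1 rose by 3.57, and without control replicate 3 Cyp1b1 and Nqo1 rose as well.

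With FICZ, Nrg1, Met and Stat3 were higher and Angpt1 was lower than in control, with no overlap between the libraries. With tryptamine, Nrg1 and Met were higher without overlap, by smaller amounts, while Angpt1 and Stat3 overlapped with control. None of the 7 genes passed with all 9 libraries in any comparison, where 0.117%, 0.00834% and 0% of all genes did in FICZ against control, tryptamine against control and FICZ against tryptamine. Without control replicate 3, Nrg1, Met and Stat3 rose and Angpt1 fell with FICZ, Nrg1 and Met rose with tryptamine, and Angpt1 was lower with FICZ than with tryptamine at an adjusted p under the threshold. Erbb2, Erbb3 and Egfr passed in none of these tests.

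**Figure D1:**
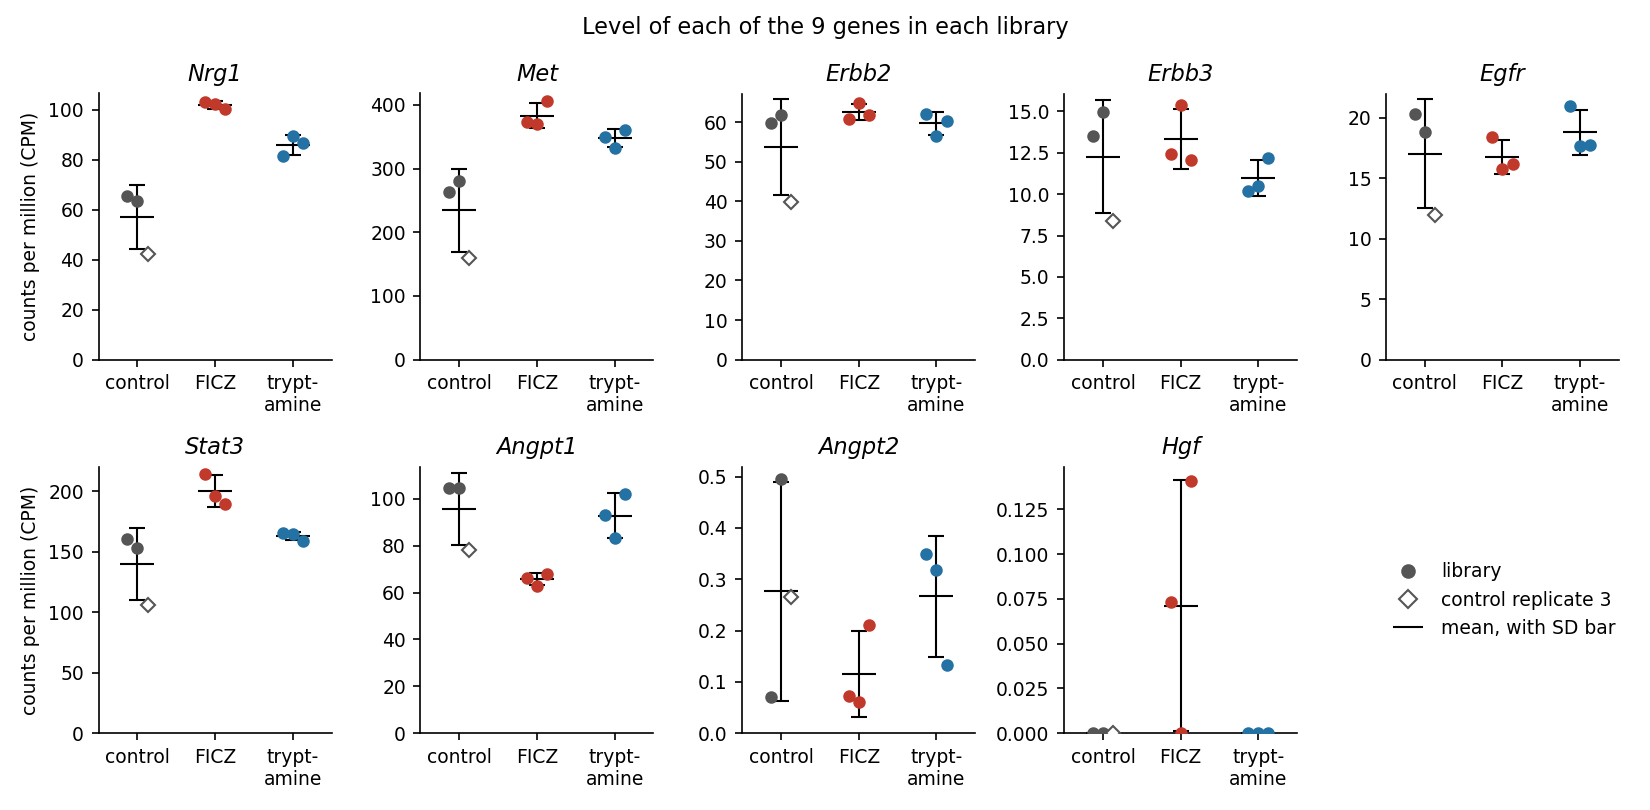
Level of each gene in CPM (vertical axes, each starting at 0) in the 3 libraries of control, FICZ and tryptamine; points are libraries, the open diamond is control replicate 3, and bars give the mean and SD of 3 libraries. Met, Nrg1 and Stat3 lie above every control library with FICZ, Angpt1 lies below every control library, and Hgf and Angpt2 are near 0.

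Among the ligands, Nrg1 (gene ID 211323) was measured on an entry of 1938 nt with 13 exons. Its level was 65.4, 63.5 and 42.1 CPM in control replicates 1, 2 and 3, 103.2, 102.1 and 100.3 CPM with FICZ, and 81.6, 89.5 and 86.8 CPM with tryptamine. The 3 groups did not overlap, with FICZ highest, tryptamine between and control lowest, and control replicate 3 was the lowest of all. The means were 57.0 ± 12.9 CPM (SD, n = 3) in control, 101.9 ± 1.5 CPM (SD, n = 3) with FICZ and 86.0 ± 4.02 CPM (SD, n = 3) with tryptamine. Of the 7 tested genes, Nrg1 had the smallest p in FICZ against control, at a log2 difference of 0.84 ± 0.150 (SE) and an adjusted p of 0.0973 by edgeR. In the fit without control replicate 3 it rose 1.58-fold with FICZ (95% interval 1.41 to 1.78, adjusted p = 2.05e-05, edgeR). With tryptamine the log2 difference was 0.59 ± 0.150 (SE, adjusted p = 0.741, edgeR), and without control replicate 3 it rose 1.33-fold (1.19 to 1.5, adjusted p = 0.0268, edgeR). The FICZ libraries were all above the tryptamine libraries, by a log2 difference of 0.25 with a 95% interval of -0.08 to 0.57, and this difference did not pass with all libraries (adjusted p = 1.0) or without control replicate 3 (adjusted p = 0.365, edgeR).

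Angpt1 (gene ID 11600), measured on an entry of 4256 nt with 9 exons, went the other way. Its level was 104.6, 104.8 and 78.0 CPM in control replicates 1, 2 and 3, 66.4, 62.8 and 68.1 CPM with FICZ, and 93.1, 83.2 and 102.3 CPM with tryptamine. Every FICZ library was below every control and every tryptamine library, also below control replicate 3, while the tryptamine libraries lay within the control range. Means were 95.8 ± 15.4 CPM (SD, n = 3) in control, 65.8 ± 2.70 CPM (SD, n = 3) with FICZ and 92.8 ± 9.56 CPM (SD, n = 3) with tryptamine. Against control, the log2 difference with FICZ was -0.54 ± 0.133 (SE, adjusted p = 0.425, edgeR) from all libraries. When that fit left out control replicate 3, Angpt1 fell to 0.628 of control (95% interval 0.555 to 0.712, adjusted p = 4.24e-05, edgeR).

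The difference of Angpt1 between FICZ and tryptamine rests on no control library for its size. It was -0.50 on the log2 scale with all libraries, with a 95% interval of -0.79 to -0.20 (adjusted p = 1.0, edgeR), and -0.50 without control replicate 3 (adjusted p = 0.00204, edgeR). In a fit of the 6 FICZ and tryptamine libraries alone it was also -0.50, with an adjusted p of 0.00573 by edgeR. So the size did not move between these fits, and only the estimate of spread did. With tryptamine against control, Angpt1 differed by -0.05 (95% interval -0.34 to 0.25), and without control replicate 3 by -0.17 (-0.35 to 0.01, adjusted p = 0.775, edgeR), where the tryptamine libraries were all below control replicates 1 and 2.

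Hgf (gene ID 15234), the ligand of MET, had 3 counts in all in the entry used. They were 1 in FICZ replicate 1 and 2 in FICZ replicate 3, with 0 in the other 7 libraries. Its entry of 2755 nt with 19 exons, with the same mean of 0.333 counts, had 2 in FICZ replicate 2 and 1 in FICZ replicate 3. Angpt2 (gene ID 11601) had 27 counts in all in its entry: 1, 7 and 3 in control, 1, 1 and 3 with FICZ, and 5, 4 and 2 with tryptamine. A count of 0 allows up to 3 counts, which is 0.184 to 0.265 CPM in these libraries. Neither gene passed in any fit that gave it an adjusted p. Without a filter on low counts, edgeR gave Angpt2 a log2 difference of FICZ from control of -1.21 with a 95% interval of -3.58 to 1.15, so all but large differences were not detectable at this depth. The limit given for a count of 0 covers counting error only.

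Among the receptors, Met (gene ID 17295), measured on an entry of 6809 nt with 22 exons, was the most abundant. Its level was 263.7, 279.8 and 159.6 CPM in control replicates 1, 2 and 3, 373.9, 369.9 and 405.7 CPM with FICZ, and 350.2, 332.1 and 360.3 CPM with tryptamine. Here too the 3 groups did not overlap and stood in the order FICZ, tryptamine, control, with control replicate 3 far below the other controls. Means were 234.4 ± 65.3 CPM (SD, n = 3) in control, 383.2 ± 19.6 CPM (SD, n = 3) with FICZ and 347.5 ± 14.3 CPM (SD, n = 3) with tryptamine. The log2 difference from control was 0.71 ± 0.172 (SE, adjusted p = 0.425, edgeR) with FICZ and 0.57 ± 0.172 (SE, adjusted p = 0.741, edgeR) with tryptamine. Leaving out control replicate 3, Met rose 1.41-fold with FICZ (95% interval 1.29 to 1.55, adjusted p = 4.58e-05, edgeR). It rose 1.28-fold with tryptamine in that fit (1.16 to 1.40, adjusted p = 0.0176, edgeR). Between FICZ and tryptamine the log2 difference was 0.14, with a 95% interval of -0.24 to 0.52 from all libraries and 0.02 to 0.26 without control replicate 3 (adjusted p = 0.699, edgeR).

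Erbb2 (gene ID 13866), the coreceptor that ERBB3 pairs with, stood at 59.9, 61.7 and 39.8 CPM in control, 60.9, 64.7 and 61.7 CPM with FICZ, and 62.1, 56.4 and 60.3 CPM with tryptamine. Apart from control replicate 3, all 8 libraries lay between 56.4 and 64.7 CPM. The log2 difference from control was 0.21 (95% interval -0.12 to 0.55) with FICZ and 0.15 (-0.19 to 0.48) with tryptamine. Both were nearer 0 without control replicate 3, at 0.04 (-0.14 to 0.22) and -0.03 (-0.21 to 0.16), and with tryptamine the direction turned.

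Erbb3 (gene ID 13867), a receptor for neuregulins, was lower in level, at 13.5, 14.9 and 8.39 CPM in control, 12.4, 15.4 and 12.1 CPM with FICZ, and 10.2, 10.5 and 12.2 CPM with tryptamine. With tryptamine all 3 libraries were below control replicates 1 and 2 but above control replicate 3. The log2 difference of tryptamine from control was -0.17 (95% interval -0.64 to 0.30), and -0.37 (-0.71 to -0.04) without control replicate 3, where its adjusted p was 0.731 by edgeR. With FICZ it was 0.11 (-0.35 to 0.57), and -0.09 (-0.42 to 0.24) without that library, so the direction turned.

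Egfr (gene ID 13649), the receptor for epidermal growth factor, stood at 20.3, 18.8 and 11.9 CPM in control, 18.4, 15.7 and 16.2 CPM with FICZ, and 20.9, 17.7 and 17.7 CPM with tryptamine. All groups overlapped when every library was used. The log2 difference of FICZ from control was -0.03 (95% interval -0.45 to 0.39), and -0.23 (-0.51 to 0.06) without control replicate 3, where the FICZ libraries were all below the 2 controls (adjusted p = 0.632, edgeR). With tryptamine it was 0.14 (-0.28 to 0.55), and it turned to -0.06 (-0.35 to 0.22) without that library.

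Stat3 (gene ID 20848), the transcription factor downstream, was measured on an entry of 4489 nt with 24 exons. Its level was 160.2, 153.3 and 105.8 CPM in control replicates 1, 2 and 3, 214.6, 196.1 and 189.3 CPM with FICZ, and 165.1, 164.8 and 159.2 CPM with tryptamine. Only FICZ stood clear: its libraries were all above those of both other groups, and tryptamine replicate 3 lay below control replicate 1. Means were 139.8 ± 29.6 CPM (SD, n = 3) in control, 200.01 ± 13.1 CPM (SD, n = 3) with FICZ and 163.0 ± 3.31 CPM (SD, n = 3) with tryptamine. From all libraries the log2 difference of FICZ from control was 0.52 ± 0.141 (SE, adjusted p = 0.550, edgeR), and without control replicate 3 Stat3 rose 1.28-fold (95% interval 1.15 to 1.41, adjusted p = 0.00876, edgeR). With tryptamine the log2 difference was 0.22 (-0.09 to 0.53), and 0.06 (-0.09 to 0.20) without that library. FICZ and tryptamine differed by 0.29 (-0.02 to 0.61), and by 0.30 (0.17 to 0.43) without control replicate 3, with an adjusted p of 0.0511 by edgeR, just above the threshold, and of 0.00217 by DESeq2.

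**Figure D2:**
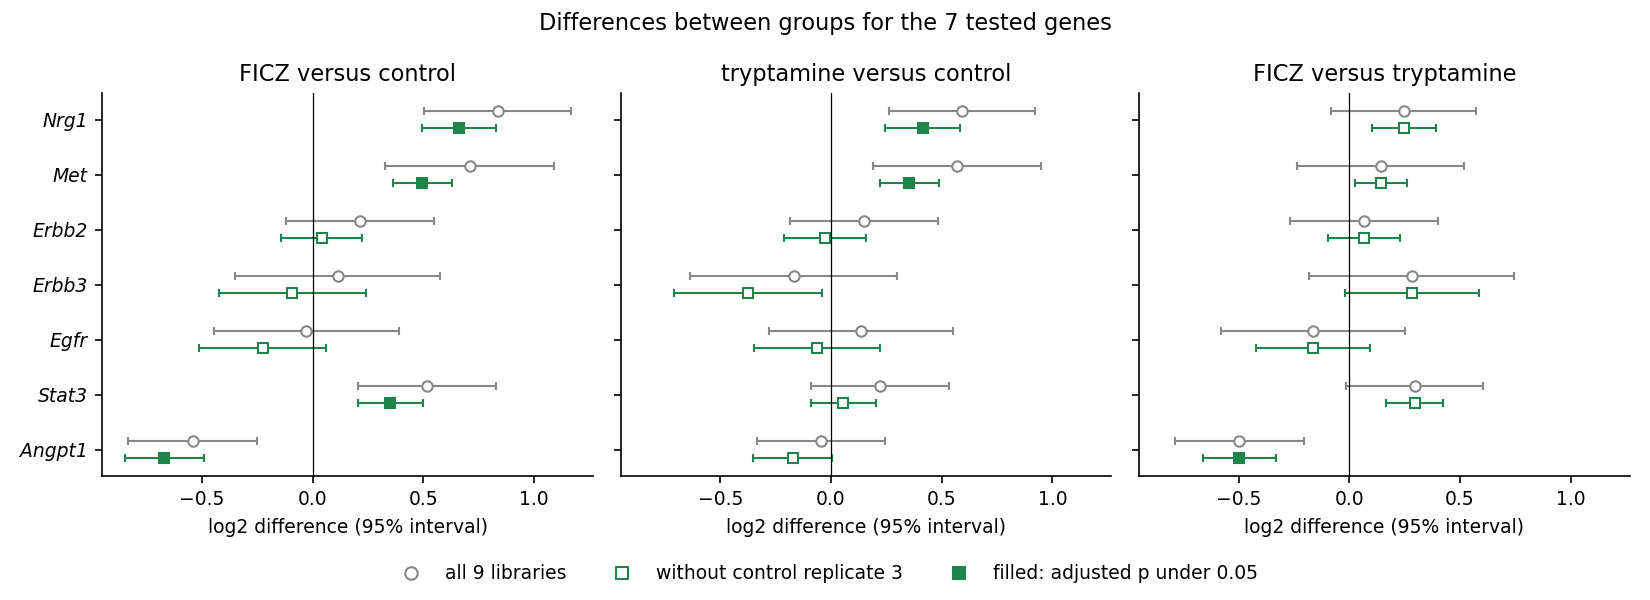
Log2 difference between groups (horizontal axis) with its 95% interval for the 7 tested genes, from all 9 libraries (grey circles) and without control replicate 3 (green squares); filled symbols have an adjusted p under 0.05. Filled squares are Nrg1, Met, Stat3 and Angpt1 for FICZ against control, Nrg1 and Met for tryptamine against control, and Angpt1 for FICZ against tryptamine.

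Against all genes, the counts of calls were as follows. Shares called by edgeR are of 11985 genes with all libraries and 12150 without control replicate 3. DESeq2's shares are in either direction and of the genes it gave an adjusted p, so the tools' shares have unlike bases. These were 12600 genes in FICZ against control and 17767 in the other 2 comparisons. Without control replicate 3 they were 11470 in both comparisons with control and 8057 in FICZ against tryptamine. With all libraries, edgeR put 3 of the 7 genes higher and 1 lower with FICZ than in control at an unadjusted p under 0.05, a threshold that 8.22% of all genes met. After adjustment edgeR called 0 of them and DESeq2's Wald test called 2, Met and Nrg1, beside 0.413% of all genes. The libraries of FICZ and control did not overlap for 4 of the 7, with 3 higher, as 8.27% of all genes were, and 1 lower, as 7.39% were. When control replicate 3 was left out, edgeR and DESeq2 called the same 4 genes, Met, Nrg1, Stat3 and Angpt1. Of all genes edgeR then called 0.593% higher and 0.239% lower, and DESeq2 called 1.16% in either direction. Egfr was then also lower in every FICZ library, so 3 of the 7 were all higher and 2 all lower, beside 14% and 14.1% of all genes.

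In tryptamine against control, 2 of the 7 genes, Met and Nrg1, were higher at an unadjusted p under 0.05, which 5.14% of all genes met, and 0 passed after adjustment by edgeR or by DESeq2, which called 0.045% of all genes. The same 2 were higher in every tryptamine library than in every control, as 5.01% of all genes were. Leaving out control replicate 3, both tools called Met and Nrg1, where edgeR called 0.189% of all genes higher and DESeq2 called 0.323% in either direction. Angpt1 and Erbb3 were then lower in every library, so 2 of the 7 were all higher and 2 all lower, beside 9.96% and 10.2% of all genes.

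In FICZ against tryptamine, Angpt1 alone was under 0.05 before adjustment, as 1.74% of all genes were, and 0 of the 7 passed by edgeR or by DESeq2, which called 0.0338% of all genes. The groups did not overlap for 4 of the 7, with Met, Nrg1 and Stat3 higher with FICZ, as 5.66% of all genes were, and Angpt1 lower, as 5.67% were. In the fit without control replicate 3, edgeR called Angpt1, where it called 0.0165% of all genes lower. DESeq2 called Angpt1 and Stat3 there, beside 0.385% of all genes, and gave Erbb3 no adjusted p. Because the 9 genes were listed with such results known, these counts describe them and are no independent evidence. The comparisons with control share the control libraries.

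Per kilobase of the entry used, Met led in every group. These levels depend on the entry, because entries with near-equal counts can differ much in length. Egfr had a mean of 247 counts on the 10208 nt used and 227 on an entry of 5965 nt. Stat3 had 2370 on the 4489 nt used and 2313 on an entry of 6044 nt. The orders given here hold for the entries used only. In control the levels were 34.4 ± 9.59 CPM per kb for Met, 31.1 ± 6.60 for Stat3, 29.4 ± 6.67 for Nrg1 and 22.5 ± 3.62 for Angpt1 (SD, n = 3 each). Neighbours among these 4 did not differ beyond their spread. Erbb2 followed at 10.8 ± 2.42 CPM per kb, and Erbb3 at 2.04 ± 0.572 and Egfr at 1.67 ± 0.439 were not apart beyond theirs. With FICZ, Met (56.3 ± 2.88) and Nrg1 (52.6 ± 0.773) came before Stat3 (44.6 ± 2.92), and Angpt1 (15.5 ± 0.635) was next to Erbb2 (12.5 ± 0.409), all in CPM per kb. With tryptamine the order of these 5 was the same, at 51.0 ± 2.10, 44.4 ± 2.07, 36.3 ± 0.737, 21.8 ± 2.25 and 11.9 ± 0.582 CPM per kb. In both treated groups the neighbours among these 5 were apart by more than their SDs added.

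Each gene has several transcript entries in the tables, whose reads overlap and which are thus not independent. Entries with a mean of at least 20 counts were compared with the mean of control replicates 1 and 2. All 12 such entries of Met were higher with FICZ, by 0.43 to 0.58 on the log2 scale, and all 12 were higher with tryptamine, by 0.09 to 0.45. All 9 of Nrg1 were higher with FICZ (0.38 to 0.83) and with tryptamine (0.24 to 0.55). For Stat3, all 23 were higher with FICZ (0.13 to 0.64), and 18 of 23 were higher with tryptamine (-0.16 to 0.31). All 10 of Angpt1 were lower with FICZ (-0.95 to -0.60), and all 10 were lower with tryptamine by less (-0.34 to -0.03).

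Control replicate 3 scattered more between the entries of each gene than either treatment did, but it is 1 library and each treatment a mean of 3. For Met its log2 ratio to the other controls ran from -3.53 to 0.50. An entry of 884 nt with 3 exons had 25 counts in it against 357 and 375, while an entry of 1561 nt with 1 exon had 952 counts against 800 and 892. For the entries used, its log2 difference from the mean of control replicates 1 and 2 was -0.77 for Met, beside a median of -0.69 over 1292 genes of like length. For Nrg1 it was -0.61 beside 0.25 over 2347 genes, of which 7.50% were lower still. For Angpt1 it was -0.42 beside -0.26, and for Stat3 -0.57 beside -0.30. With all 9 libraries and each library's trend over transcript length removed by an offset, the log2 difference of FICZ from control was 0.50 for Met (adjusted p = 0.00162), 0.91 for Nrg1 (adjusted p = 0.0429) and -0.62 for Angpt1 (adjusted p = 0.00861), each past edgeR's threshold. Without the offset these differences were 0.71, 0.84 and -0.54 with all libraries, and 0.50, 0.66 and -0.67 without control replicate 3. Of these 3 genes, only Nrg1 was moved by the offset away from its value without that library. Stat3 stood at 0.43 with the offset, with an adjusted p of 0.0569 by edgeR. With tryptamine, neither Met (0.38, adjusted p = 0.0590, edgeR) nor Nrg1 (0.65, adjusted p = 0.680, edgeR) passed there. The difference of Angpt1 between FICZ and tryptamine was -0.50 and did not pass either (adjusted p = 0.180, edgeR).

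**Figure D3:**
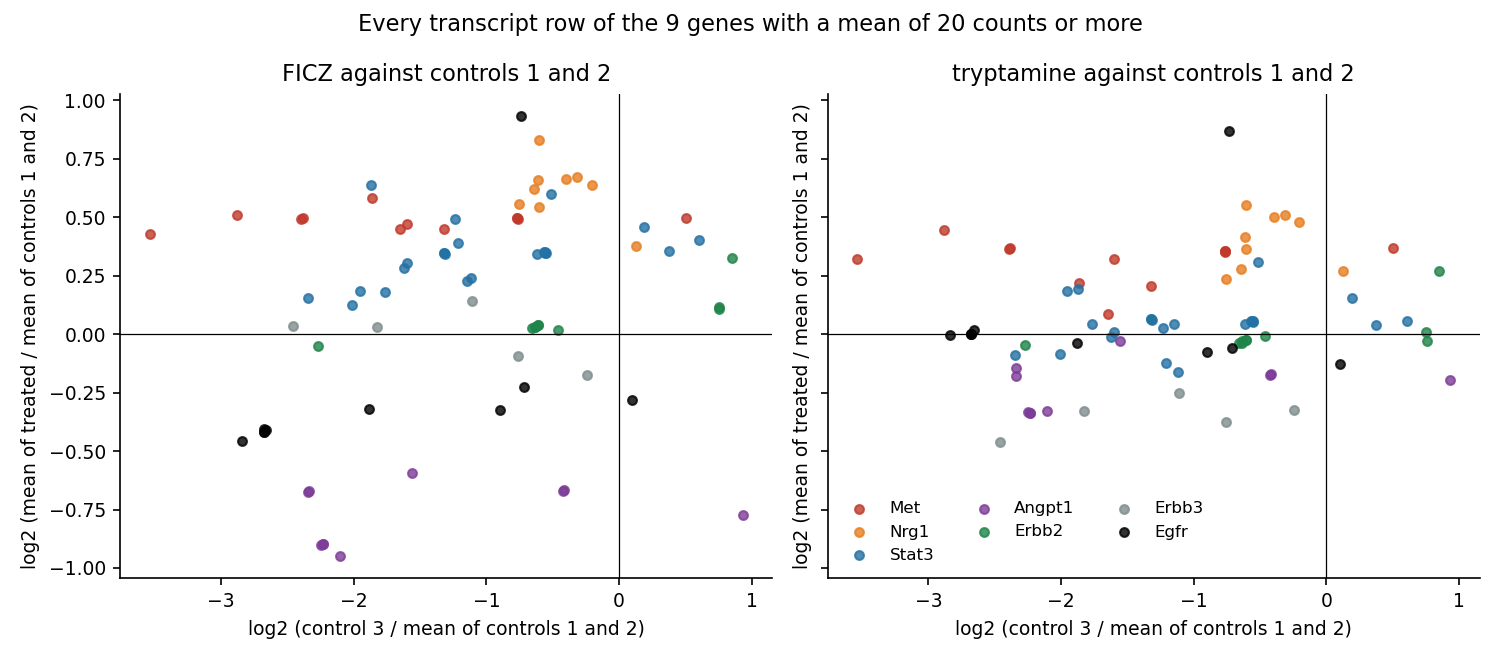
Each point is 1 transcript entry with a mean of 20 counts or more; the horizontal axis gives control replicate 3 and the vertical axis the mean of FICZ (left) or tryptamine (right), both as log2 ratios to the mean of control replicates 1 and 2. For each gene the entries spread more along the horizontal axis than along the vertical one, but the first is 1 library and the second a mean of 3. Egfr spreads most on the vertical axis, from -0.46 to 0.94 with FICZ. With FICZ, Met, Nrg1 and Stat3 lie above 0 and Angpt1 below 0.

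The authors' deposited table, which tests each transcript entry, gives Met a log2 change of 0.67 (adjusted p = 1.79e-09) and Nrg1 one of 0.8 (adjusted p = 1.45e-08) for FICZ against control. In the authors' deposited table Stat3 has 0.48 (adjusted p = 0.00158) and Angpt1 -0.58 (adjusted p = 1.53e-05) in that comparison. For tryptamine against control the authors' deposited table gives Met 0.53 (adjusted p = 0.0024) and Nrg1 0.55 (adjusted p = 0.0233), and for FICZ against tryptamine it gives Angpt1 -0.5 (adjusted p = 2.51e-05). At an adjusted p under 0.05, the authors' deposited table has 11 of 12 entries of Met, 8 of 11 of Nrg1 and 15 of 24 of Stat3 higher with FICZ and 3 of 10 of Angpt1 lower, where 2.38% of all entries were higher and 3.23% lower. With tryptamine, 8 of 12 entries of Met and 2 of 11 of Nrg1 were higher in the authors' deposited table, where 0.393% of all entries were. For FICZ against tryptamine, 3 of 10 entries of Angpt1 were lower in the authors' deposited table, where 0.0153% of all entries were. None of the 9 genes is in the authors' lists of 81 and 22 genes higher with FICZ and with tryptamine. Entries of Met and Nrg1 passed 0.05 in the deposited table for both treatments, so these lists do not follow that threshold alone.

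Genes with a pattern like those of Met, Nrg1 and Angpt1 were sought among 11043 genes with a mean of at least 20 counts, by Pearson's r of log2 CPM. The libraries share their groups and control replicate 3, so r describes the pattern only. Over all 9 libraries the nearest to Met were Cpeb4 (0.992), Tnxb (0.990) and Gnai3 (0.985), with Nrg1 at rank 24 (0.969). Over the 8 libraries without control replicate 3 they were Naip2 (0.993), 2400003C14Rik (0.986) and Ddx58 (0.986), with Nrg1 at rank 26 (0.930). None of the 3 nearest was thus shared between both sets of libraries.

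For Nrg1 the nearest were Aldh3a2 (0.986), Tnfrsf10b (0.984) and Mpp2 (0.983) over 9 libraries, and Cldnd1 (0.992), Adh7 (0.982) and Atp1b3 (0.982) over 8. For Angpt1 they were Ugt2b34 (0.946), Fhod3 (0.935) and Pdgfc (0.903) over 9 libraries, and Krt18 (0.980), Nfkb1 (0.977) and Dcbld2 (0.966) over 8. Within the axis and over 8 libraries, r of Angpt1 was -0.93 with Stat3, -0.88 with Nrg1, -0.74 with Met and 0.70 with Egfr. Over all 9 libraries these were -0.42, -0.43, -0.25 and 0.49, so 1 library moved them widely.

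The wider pathway was followed in 7 lists of 102 other genes, of which 91 had a count and 76 were tested. None rose or fell in any of the 3 comparisons, with all libraries or without control replicate 3, by edgeR or DESeq2. At an unadjusted p under 0.05, 4 of the 76 were higher and 3 lower with FICZ than in control, beside 430 and 555 of all 11985 genes, and leaving out control replicate 3 gave 5 and 7, beside 621 and 594 of 12150. In tryptamine against control the numbers were 3 and 0, beside 252 and 364 of all genes, and then 3 and 3, beside 433 and 370. In FICZ against tryptamine they were 1 and 1, beside 90 and 118, and then 6 and 3, beside 367 and 359.

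The direction of the lists moved with control replicate 3. With all libraries 50 of the 76 genes were above 0 with FICZ and 51 with tryptamine, with median log2 differences of 0.07 and 0.09. Leaving out control replicate 3, 38 and 34 were above 0, with medians of -0.0012 and -0.02. Of all genes tested, 48.8% were above 0 with FICZ and 50.0% with tryptamine with all libraries, and 50.1% and 49.9% without that library. In the paragraphs on single lists, a value in brackets is the one without control replicate 3.

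Partners of the axis were partly missing. Tek, the receptor of both angiopoietins, Erbb4, the other receptor that binds neuregulins, Nrg2, Nrg3 and the protease gene St14 had 0 counts in all 9 libraries, and Plau, the gene of urokinase, had 1. The other receptor of that family, Tie1, had 11 counts in all.

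Among the 6 tested ErbB ligands, 1 (1) was above 0 with FICZ and 3 (1) with tryptamine. Hbegf, an EGFR ligand, differed from control by -0.24 (-0.10) with FICZ and -0.26 (-0.12) with tryptamine on the log2 scale, and Nrg4, an ERBB4 ligand, by -0.15 (-0.19) and -0.29 (-0.33). Between FICZ and tryptamine Areg differed by -0.34 (-0.34) and Btc, also an EGFR ligand, by -0.29 (-0.29).

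Of the 4 tested genes of HGF and MET processing, 1 (2) was above 0 with FICZ and 2 (3) with tryptamine. Spint2, an inhibitor of the proteases that activate HGF, differed by -0.47 (-0.24) with FICZ, at an adjusted p of 0.600 (0.278) by edgeR, and by -0.22 (0.01) with tryptamine. Its control level was 85.7 and 88.3 CPM in replicates 1 and 2 and 132.2 CPM in replicate 3. Hpn, such a protease, differed by -0.37 (-0.36) and -0.23 (-0.22). Between FICZ and tryptamine, Mst1, an HGF relative, differed by 0.32 (0.32) and Spint2 by -0.26 (-0.25).

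Of the 12 tested genes upstream of STAT3 or inhibiting it, 9 (8) were above 0 with FICZ and 8 (5) with tryptamine. Osmr, the oncostatin M receptor, differed by 0.70 (0.43) with FICZ, at an adjusted p of 0.600 (0.204) by edgeR. The kinase gene Jak1 differed by 0.29 (0.12) with FICZ, and Tyk2, another such kinase, by 0.29 (0.14) with tryptamine. Il6st, a receptor subunit shared by cytokines of the IL-6 family, differed by 0.36 (0.03) with tryptamine. It stood at 173.4 and 165.5 CPM in control replicates 1 and 2 and at 66.7 CPM in control replicate 3. Between FICZ and tryptamine Osmr differed by 0.47 (0.47) and Socs3, a STAT3 target that inhibits JAK kinases, by 0.22 (0.22).

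The 3 tested genes of the angiopoietin list had a median log2 difference of 0.30 (0.16) with FICZ and -0.26 (-0.23) with tryptamine. Ptprb, a phosphatase that acts on TIE2, differed by 0.30 (0.16) and 0.50 (0.37), and Angptl2 by -0.28 (-0.25) and -0.26 (-0.23). Between FICZ and tryptamine Ptprb differed by -0.21 (-0.21) and Angptl2 by -0.02 (-0.01).

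Of the 24 adaptors and kinases that relay receptor signals, 17 (10) were above 0 with FICZ and 16 (8) with tryptamine, and the list medians of 0.045 (-0.026) and 0.044 (-0.027) turned in sign. Gab2 differed by 0.32 (0.33) with FICZ and by 0.32 (0.32) between FICZ and tryptamine, where Grb2 differed by 0.11 (0.11). Hras1 differed by -0.25 (-0.03) with tryptamine, with 88.4 and 86.0 CPM in control replicates 1 and 2 and 130.4 CPM in control replicate 3.

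Of the 15 feedback inhibitors, 12 (10) were above 0 with FICZ and 11 (10) with tryptamine. Spry4, a Sprouty inhibitor, differed by 0.41 (0.29) with FICZ, at an adjusted p of 0.600 (0.318) by edgeR, and by 0.43 (0.31) with tryptamine. Ptpn1 differed by 0.28 (0.21) with FICZ, and Spred2 by 0.34 (0.13) with tryptamine. Lrig3 and Rnf41 differed by -0.34 (-0.33) and 0.18 (0.18) between FICZ and tryptamine. Of the 12 other receptor tyrosine kinases, 8 (5) were above 0 with FICZ and 10 (6) with tryptamine. Axl differed by 0.27 (0.13) with both, Epha2 by 0.27 (0.12) and 0.29 (0.14), and between FICZ and tryptamine Flt1 and Insr differed by -0.59 (-0.59) and 0.13 (0.13).

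**Figure D4:**
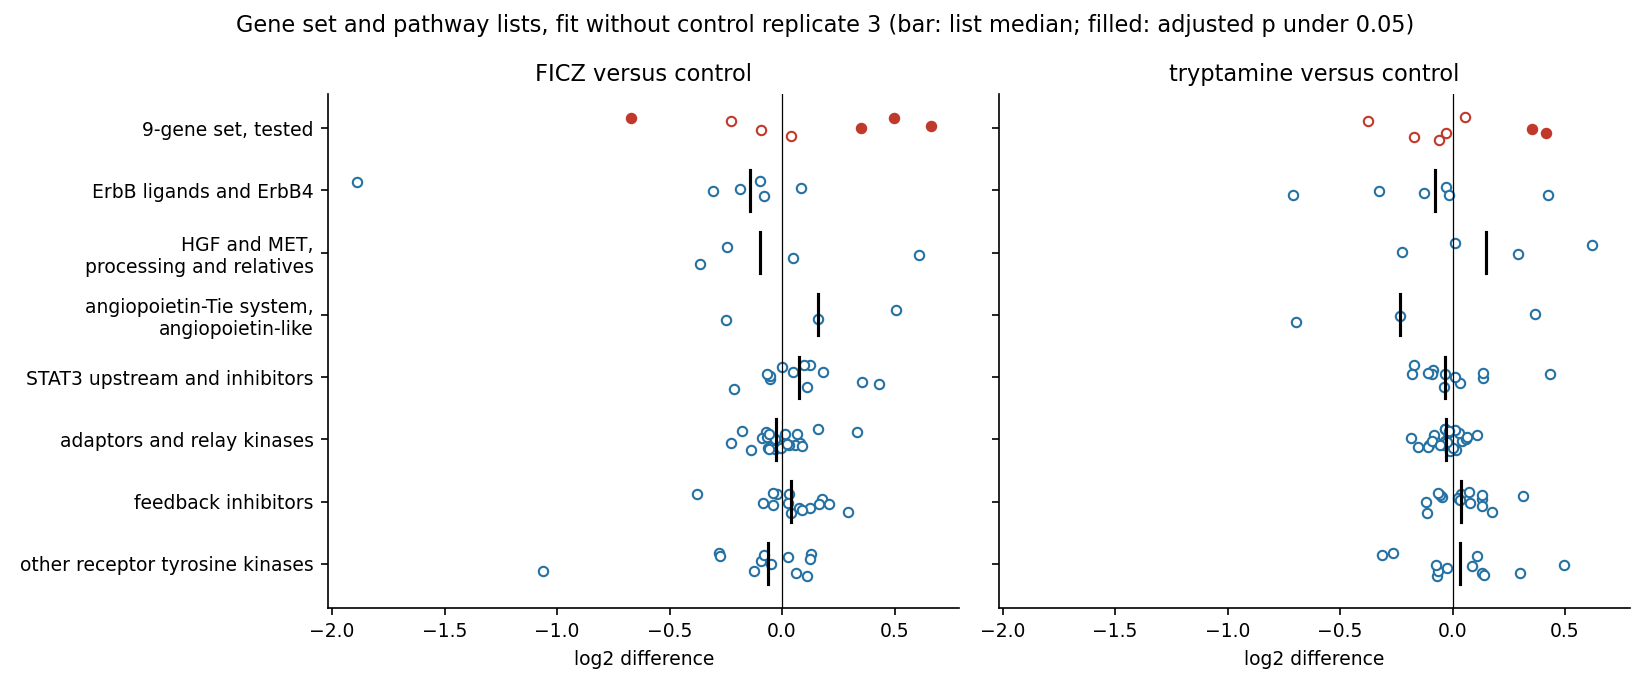
Log2 difference from control (horizontal axis) without control replicate 3, for FICZ (left) and tryptamine (right); each point is 1 gene, black bars are list medians, and filled points have an adjusted p under 0.05. Genes of the axis are filled, 4 with FICZ and 2 with tryptamine, and the 76 genes of the lists are open. The AhR response genes are not shown. Of all genes, edgeR called 0.593% higher and 0.239% lower with FICZ, and 0.189% higher with tryptamine, in this fit. The axis genes were listed with such results known, so their contrast with the lists is no independent evidence.

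Cell type markers were checked against the hepatoma label. Of 8 hepatocyte markers, Alb and Afp were present and Fgb had 2 counts, while Ttr, Apoa1, Apob, Hnf4a and Trf were at 0 or not listed. Their summed level was 365 to 521 CPM in control, 330 to 349 CPM with FICZ and 332 to 380 CPM with tryptamine. Of 6 endothelial markers, 3 had a count, at a sum of at most 1.32 CPM, with Cdh5, Tek and Emcn at 0. Of the 6 fibroblast and stellate markers 5 had a count, with sums of 965 to 1312, 1269 to 1399 and 1225 to 1411 CPM in control, FICZ and tryptamine. Most of this sum was Col1a1, with a mean of 1224 CPM. Pdgfrb had a mean of 46.6 CPM and the other markers of this list had less, with Col1a2 at 0.0997 CPM. Of 5 bile duct markers 4 had a count, with Epcam at 0, and sums of 1146 to 1605, 1076 to 1129 and 1047 to 1127 CPM. Of 5 macrophage and blood markers 3 had a count, with sums of 52.5 to 79.7, 53.9 to 55.7 and 56.3 to 59.5 CPM. Here Csf1r had a mean of 54.6 CPM, Cd68 3.81 CPM and Ptprc 0.131 CPM. Control replicate 3 was the highest control in the hepatocyte, macrophage and bile duct sums and the lowest in the fibroblast and endothelial sums. The part of other cells in the results for the axis was not tested, and in bulk RNA fewer cells of a type and less RNA per cell cannot be told apart.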

How the data were processed

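RNA of 9 libraries, 3 each of control, FICZ and tryptamine, was analysed from the deposited tables. Per the file headers these hold whole-number read counts of 189660 transcript entries, and the authors' p-values, adjusted p-values and log2 fold changes between groups. DESeq is named in the submitters' processing notes, with no version. The build is not given in the sources used here, nor are the aligner and the counting rule.

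The 9 genes and the pathway and marker lists were chosen with earlier results of these data known. Left out were 5653 entries naming several loci and 22128 with no gene ID, which together took 4.37 to 5.00% of the counts. For every gene the entry with the highest mean count was used, and when entries tied the first was taken. All 9 repeated count columns were identical between tables. Counts of all genes were fitted in edgeR 4.0.16 (R 4.3.3, TMM scaling, filterByExpr, quasi-likelihood test, group only), with Benjamini-Hochberg adjustment over the 11985 genes tested. SE is the log2 difference divided by the square root of F, and CPM uses effective library sizes. Beside all 9 genes and 4 AhR response genes, the text names pathway genes that passed, and up to 2 per list and comparison with the smallest p and a mean of at least 20 counts. Some genes that this rule names are not reported here. Alternatives included DESeq2 1.42.0, other filters, sums over entries, a length term, a replicate block and each library left out. The test was also run on simulated counts of all 9 libraries, with 1 dispersion for every gene and no library that stood apart. In FICZ against control, 11872 genes and a dispersion of 0.0056 were used first. There it recovered 83% of genes changed by 0.5 on the log2 scale and 99% of those changed by 1, and called 8 unchanged genes. With 11861 genes and a dispersion of 0.0243 it recovered 14% and 94%, and called 7 unchanged genes. No fit reported here has such a setting, so these shares do not carry over to the tests above.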

Additional observations from a re-analysis of the deposited data

How the results depend on the processing

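Met, Nrg1, Stat3 and Angpt1 in FICZ against control, Met and Nrg1 in tryptamine against control, and Angpt1 in FICZ against tryptamine kept their direction in all 19 alternatives. In FICZ against control they passed in 5 (Met), 6 (Nrg1), 3 (Stat3) and 4 (Angpt1) of these. In tryptamine against control Met and Nrg1 passed in 3 each, and in FICZ against tryptamine Angpt1 passed in 4. Control replicate 3 was the only single library whose removal let any of the 7 genes pass. The alternatives with 2 changes at once, a length term or DESeq2 without control replicate 3, were chosen after seeing the data.

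The number of genes of all those tested that passed in FICZ against control was 14, and 52 by DESeq2, 26 without a filter, 2 from the 6 libraries of the pair, 4 with the replicate block, 4 with sums over entries, 52 with a length term, and 4 to 101 when 1 library was left out (101 without control replicate 3, 5 and 8 without control replicates 1 and 2, 4 without any of the 3 FICZ libraries, and 6 and 7 without tryptamine replicates 1 and 3). Without control replicate 3 it was 116 with a length term and 133 by DESeq2. In tryptamine against control it was 1, and 8 by DESeq2, 2 without a filter, 2 with sums, 6 with a length term, 1 to 25 leaving out 1 library (25 without control replicate 3), and 28 and 37 with a length term or DESeq2 without that library. In FICZ against tryptamine it was 0, and 6 by DESeq2, 17 from the pair, 5 with a length term, 0 to 17 leaving out 1 library (17 without control replicate 3), and 21 and 31 in the last 2 fits. Equal replicate numbers gave no clear sign of pairing. Deviations from the group means correlated at -0.083 to 0.18 over 9 pairs of equal number and -0.19 to 0.14 over 18 others. Not every library correlated best with its own number. With 3 libraries in a group this check is weak and cannot exclude pairing. The replicate block left 4, 1 and 0 genes in the 3 comparisons and 0 of the 7.

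Of the 7 genes, 0 passed in FICZ against control with all libraries, 2 by DESeq2, 1 without a filter (Nrg1), 3 with a length term (Met, Nrg1 and Angpt1), 0 to 4 leaving out 1 library, and 4 in both added fits. In tryptamine against control 0 passed, 0 to 2 leaving out 1 library and 2 in both added fits. In FICZ against tryptamine 0 passed, 1 from the pair, 0 to 1 leaving out 1 library and 2 in both added fits (Angpt1 and Stat3).

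Directions turned for small differences, and the cause was not tested. Erbb3 with FICZ was -0.051 with a length term, -0.098 and -0.091 in the added fits, and -0.091 to 0.28 leaving out 1 library. Egfr with FICZ was 0.027 with sums, and -0.23 to 0.12 leaving out 1 library. Egfr with tryptamine was -0.18 with a length term, -0.049 and -0.061 in the added fits, and -0.061 to 0.28 leaving out 1 library. Erbb2 with tryptamine was -0.026 in both added fits and -0.027 to 0.26 leaving out 1 library. Angpt1 with tryptamine was -0.17 to 0.028 leaving out 1 library. Ptprb with FICZ was -0.092 with a length term. Spint2 with tryptamine was 0.0097 and 0.013 in the added fits and -0.33 to 0.012 leaving out 1 library. Angptl2 was -0.46 to 0.050 with tryptamine leaving out 1 library, and between FICZ and tryptamine 0.00088 with the block and -0.33 to 0.18 leaving out 1 library. Btc between FICZ and tryptamine was -0.60 to 0.13 leaving out 1 library.

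Counts limit Hgf and Angpt2: both stayed under the filter on low counts. Neither passed without that filter, nor did Angpt2 with sums over entries (log2 difference of FICZ from control -1.05, adjusted p = 0.666 by edgeR). DESeq2 gave both no adjusted p in FICZ against control.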
